A study of Homo sapiens with 9 samples.

Results

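The UBE2 genes are the main family of genes for ubiquitin-conjugating (E2) enzymes, and their RNA was followed in Kasumi-1, a human acute myeloid leukaemia line with the t(8;21) translocation, which joins RUNX1 to RUNX1T1 to give the fusion protein AML1-ETO (AE). The members were chosen by their gene symbol alone: UBE2, then 1 letter, then at most 1 digit. This rule found 36 of the 59648 genes listed in each file, and 33 of them had enough reads to be tested, among 14741 genes tested in all. The family was put forward for description with earlier results of these data known, so its counts and medians are descriptions and carry no test of the family as a whole.

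All 9 libraries came from cells infected with an shRNA lentivirus for 48 h and kept in 1 µg/mL puromycin for a further 48 h, with RNA taken on day 4. In 3 libraries the virus carried a control shRNA (1 to 3), in 3 an shRNA against AE (1 to 3) and in 3 an shRNA against LYL1, a transcription factor of the complex that AE forms (538, 540 and 542). The controls therefore share the infection and the selection with both knockdowns. Whether a group's 3 libraries came from separate cultures, or carried the same shRNA or different ones, is not stated. Each p-value thus speaks for the spread among these libraries alone, which may be technical or include differences between shRNAs.

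E2 enzymes stand in the middle of the ubiquitin cascade. An E1 enzyme activates ubiquitin, an E2 takes it over on a cysteine of its active site, and an E3 ligase brings the loaded E2 to the protein that is to be marked. The E2 largely sets which kind of ubiquitin chain is built, and a few members of the family carry ubiquitin-like modifiers such as NEDD8 or ISG15 in place of ubiquitin. Leukaemic myeloblasts divide, and E2 enzymes of the anaphase-promoting complex (APC/C) serve the exit from mitosis.

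The libraries held 20103275 to 28039518 counts. RUNX1T1, whose reads include those of the fusion, was at 52.6%, 63.0% and 40.5% of the control mean in AE shRNA libraries 1, 2 and 3. LYL1 was at 49.5%, 60.5% and 27.0% of the control mean in LYL1 shRNA libraries 538, 540 and 542. Each targeted gene was thus below all controls in its own group. RUNX1T1 was called with AE knockdown (log2 fold change -0.94, edgeR adjusted p = 0.00778), but LYL1 was not called with LYL1 knockdown (-1.13, SE 0.26, adjusted p = 0.526), so in that comparison even the targeted gene did not pass the threshold. The myeloid granule gene MPO was at 11418 to 32465 CPM over the 9 libraries, whereas 9 of 14 erythroid markers had no read in any library.

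With AE knockdown 7 of the 33 UBE2 genes fell and none rose, and with LYL1 knockdown none was called. UBE2S, which lengthens ubiquitin chains for the APC/C, had the largest fall of the 7, a log2 fold change of -1.02. UBE2K, UBE2O, UBE2L3, UBE2R2, UBE2G1 and UBE2Q1 fell by 0.40 to 0.63 on the log2 scale. Changes were called with the quasi-likelihood test of edgeR at an adjusted p below 0.05 over all genes tested. At that threshold 10.4% of all genes tested were called lower with AE knockdown and 11.4% higher. These shares are also the background for the gene lists counted with AE knockdown below. In the fit of all 9 libraries the 21.2% of the members called lower lay above the background and the share called higher lay below it. Without control 1 or 2, 0 members were called lower, against 3.95% and 3.51% of all genes, and without control 3 it was 1, against 3.97%. The background was not matched for level: 30 of the 33 members but 8654 of the 14741 genes were above 10 CPM. For the 0 members called higher, the unadjusted p was below 0.05 in 1 (UBE2W), and neither DESeq2 nor limma-voom called any.

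The promoters of the 2 members named next are shown because they carry, among the 6 called members in the promoter table, the matches to motifs for RUNX factors and to the CCAAT box. They come from RefSeq (GRCh38.p14) and run from 250 bases before the gene's start to 50 bases after it, 5′ to 3′ along the gene. UBE2S lies on the minus strand at chr19:55407739-55408038 and UBE2K on the plus strand at chr4:39697886-39698185. The capitals mark a CCAAT box in UBE2S, read on the opposite strand as its reverse complement, and the RUNX motif TGTGGT in UBE2K, likewise read on the opposite strand.
UBE2S: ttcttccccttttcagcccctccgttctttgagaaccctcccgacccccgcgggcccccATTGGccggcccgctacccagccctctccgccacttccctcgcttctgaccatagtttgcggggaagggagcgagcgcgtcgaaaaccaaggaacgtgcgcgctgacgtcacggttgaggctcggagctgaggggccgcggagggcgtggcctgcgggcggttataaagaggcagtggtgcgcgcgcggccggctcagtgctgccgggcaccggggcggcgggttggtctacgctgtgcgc
UBE2K: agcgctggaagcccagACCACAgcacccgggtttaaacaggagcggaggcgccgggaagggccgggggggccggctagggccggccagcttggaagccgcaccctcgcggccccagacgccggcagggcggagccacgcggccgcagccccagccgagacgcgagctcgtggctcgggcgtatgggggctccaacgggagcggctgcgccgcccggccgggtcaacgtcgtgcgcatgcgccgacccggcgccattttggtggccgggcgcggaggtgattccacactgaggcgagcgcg

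The table held a promoter for 26 of the 36 members, 25 of them tested. The RUNX motif TGTGGT, searched on both strands, was present in 1 of the 25 (UBE2K, from 234 bases before the start), against 13.1% of all 27305 promoters. The CCAAT box was present in 7 of the 25 and in 35.7% of all promoters, and UBE2S, with its match from 191 bases before the start, was the only called member with one. The cell-cycle element CHR (TTTGAA or TTCGAA) was present in UBE2F and UBE2T, in none of the 6 called members and in 16.6% of all promoters. The median GC content was 72.0% in the tested members and 58.3% in all promoters. These matches describe the letters in the window and show no binding.

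Levels are given as CPM, the usual scaling of counts to library totals, here corrected by TMM factors. The APC/C uses a pair of E2 enzymes: UBE2C attaches the first ubiquitins to mitotic cyclins and securin, and UBE2S extends the chain. UBE2S stood at 100, 110 and 105 CPM in control libraries 1, 2 and 3. It stood at 35.0, 74.7 and 45.4 CPM in AE shRNA libraries 1, 2 and 3. In LYL1 shRNA libraries 538, 540 and 542 it stood at 99.6, 79.1 and 127 CPM. All AE libraries lay below all controls and all LYL1 libraries, with AE library 1 the lowest, and the LYL1 libraries spread on both sides of the controls. The log2 fold change with AE knockdown was -1.02 (SE 0.25, adjusted p = 0.0193 with edgeR, lower in 3 of 3 libraries). UBE2S lost the call without AE library 3 (adjusted p = 0.0530) and without any one of the controls (0.0570, 0.0634 or 0.0684).

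UBE2C did not follow to the same extent. Its levels were 133, 137 and 112 CPM in the control libraries and 92.9, 121 and 98.9 CPM with AE knockdown, and AE library 2 overlapped the controls. Its log2 fold change was -0.29 (SE 0.14), which missed the threshold (edgeR adjusted p = 0.160). Without AE library 2 it passed (adjusted p = 0.0476). In LYL1 shRNA libraries UBE2C stood at 107 to 121 CPM, overlapping the controls. The difference between UBE2S and UBE2C was not tested.

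UBE2S and UBE2C are cell-cycle genes, and other mitotic genes were also lower in the AE libraries. Of 19 tested genes of a mitosis list, 7 fell and none rose, among them MKI67 (log2 fold change -0.97), PLK1 (-0.81) and TPX2 (-0.80), with a list median of -0.34 against 0.05 for all genes. The summed CPM of that list was 67.4%, 86.6% and 57.1% of the control mean in AE libraries 1, 2 and 3. UBE2S itself was at 33.4%, 71.1% and 43.3%, and UBE2C at 72.8%, 94.7% and 77.5%. All these values were closest to control in AE library 2, the library in which RUNX1T1 was least reduced. The lowest value fell in library 1 for UBE2S and UBE2C and in library 3 for the mitosis list. By contrast, 3 of the 7 called UBE2 genes (UBE2R2, UBE2G1 and UBE2Q1) were lowest in AE library 2. A relation to the level of RUNX1T1 was not tested. In the LYL1 shRNA libraries the mitosis list was at 86.3% to 93.3% of the control mean. The part of proliferation in the fall of UBE2S was not tested, and in bulk RNA fewer cells of a type and less RNA per cell cannot be told apart.

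**Figure D1:**
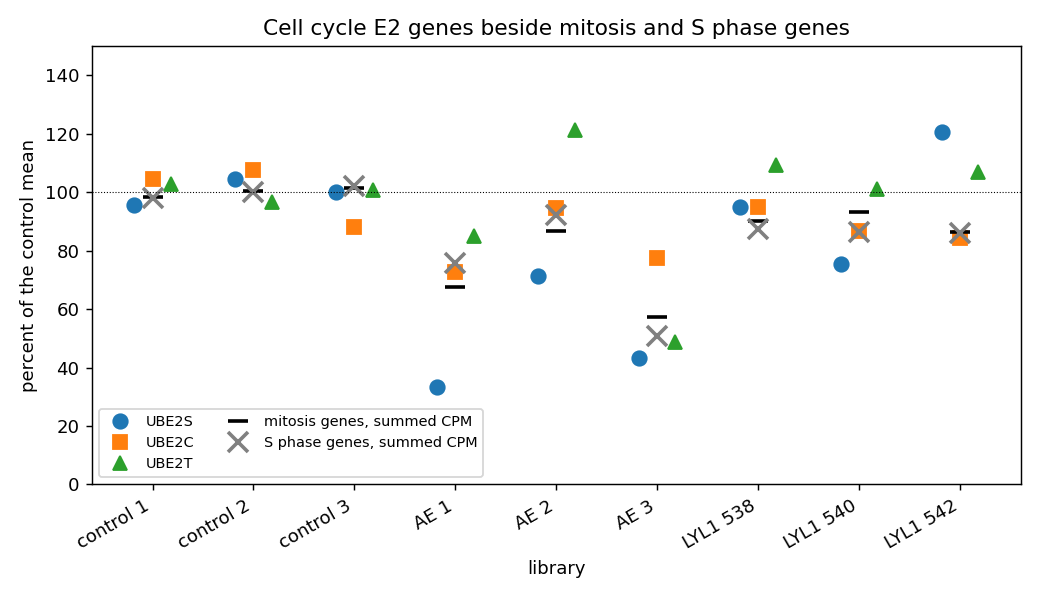
Level of UBE2S, UBE2C and UBE2T and the summed level of the mitosis and S phase lists in each of the 9 libraries, as percent of the control mean on the vertical axis, with the libraries along the horizontal axis and 1 symbol per gene or list. In AE libraries 1 and 3 UBE2S sits at 33.4% and 43.3%, under both lists.

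Of the UBE2 genes, 3 that work with cullin, RBR or HECT ligases fell (UBE2L3, UBE2R2 and UBE2G1). CDC34, a cullin E2 outside the family by its symbol, did not pass the test, with 50.3 to 56.4 CPM in the controls, 44.4 to 53.6 CPM in the AE libraries and a log2 fold change of -0.08 (SE 0.16). UBE2L3, the partner of RBR ligases such as parkin and of HECT ligases, stood at 236, 229 and 220 CPM in the controls, 170, 159 and 141 CPM in the AE libraries and 230, 216 and 251 CPM in the LYL1 libraries. UBE2R2, a close relative of CDC34 that builds chains with cullin-RING ligases, stood at 132, 129 and 116 CPM, at 87.9, 76.6 and 95.2 CPM and at 120, 114 and 104 CPM in the same order. UBE2G1, which extends chains on substrates of cullin ligases, stood at 99.0, 102 and 93.6 CPM, at 75.6, 64.0 and 75.5 CPM and at 99.1, 86.6 and 101 CPM. For each of these 3 genes every AE library lay below every control and every LYL1 library. The AE libraries also lay close together, whereas those of UBE2S did not.

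The log2 fold change was -0.54 (SE 0.13) for UBE2L3, with an edgeR adjusted p of 0.0158. It was -0.54 (SE 0.13) for UBE2R2, with 0.0178, and -0.45 (SE 0.13) for UBE2G1, with 0.0289. UBE2L3 kept its call without any one AE or LYL1 library, and UBE2R2 also without control 3. UBE2R2 lost it without control 1 or 2 (adjusted p up to 0.0773) and UBE2L3 without any one control (up to 0.0698). UBE2G1 lost it without any one control (0.0716 to 0.112) and without AE library 2 (0.0504).

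Among the ligases these enzymes serve, 2 of 17 cullin and RING-partner genes rose and 1 fell with AE knockdown. Of all genes tested 11.4% were called higher and 10.4% lower. RBX1 and RNF7, the RING subunits that bind the E2, rose by log2 fold changes of 0.51 and 0.61, while the scaffold gene CUL1 fell by 0.54. The list median was -0.12, against 0.05 for all genes.

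Enzymes with other or less settled partners gave the remaining 3 called genes, of 6 tested. UBE2K builds chains that mark proteins for the proteasome. It stood at 199, 213 and 205 CPM in the controls, 97.4, 165 and 136 CPM in the AE libraries and 198, 207 and 241 CPM in the LYL1 libraries. As for UBE2S, AE library 1 was lowest and library 2 closest to the controls. The log2 fold change was -0.63 (SE 0.18, adjusted p = 0.0304 with edgeR), and the call was lost without AE library 1 (log2 fold change -0.46, adjusted p = 0.0587) and without any one control (0.0807 to 0.101).

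UBE2O is a large enzyme that joins E2 and E3 activity in 1 protein and clears ribosomal proteins in maturing red cells. Its levels were 126, 128 and 118 CPM in the controls, 99.3, 91.7 and 56.6 CPM in the AE libraries and 119, 102 and 110 CPM in the LYL1 libraries. Here AE library 3 was the low one, and the AE libraries lay below all others, while the LYL1 libraries overlapped the controls. The log2 fold change was -0.59 (SE 0.19, adjusted p = 0.0460 with edgeR). It was -0.39 without AE library 3, where the call held (adjusted p = 0.0430). The call was lost without any one control (0.102 to 0.134) or any one LYL1 library (0.0574 to 0.0618).

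UBE2Q1, an E2 with a long extension before its catalytic domain, had the smallest called fall. It stood at 118, 119 and 115 CPM in the controls, 89.1, 81.7 and 98.0 CPM in the AE libraries and 117, 123 and 143 CPM in the LYL1 libraries. The AE libraries were again below all others. The log2 fold change was -0.40 (SE 0.13, adjusted p = 0.0490 with edgeR). The call was kept only without AE library 3 or LYL1 library 542, and the adjusted p reached 0.147 over the omissions.

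**Figure D2:**
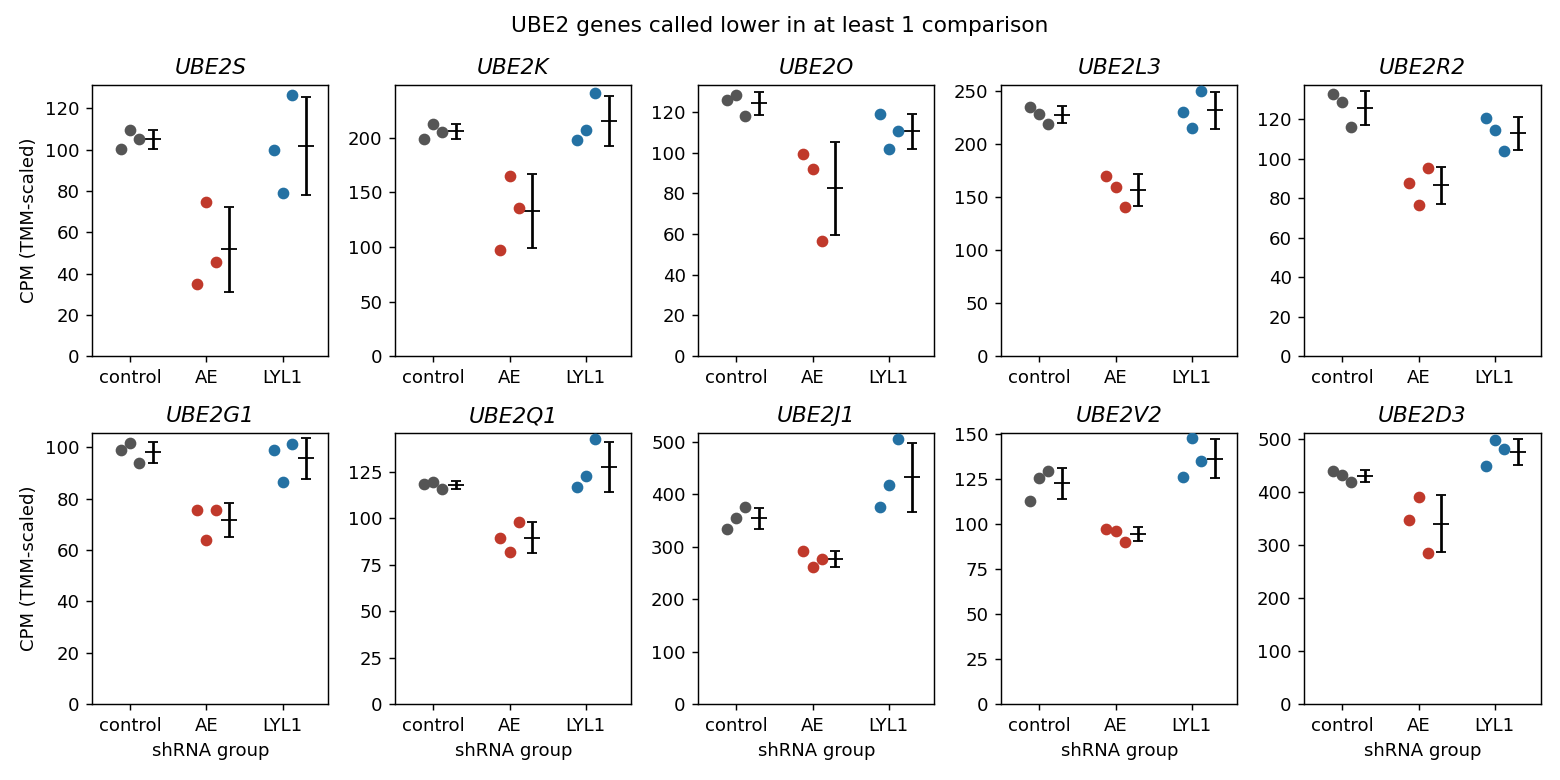
CPM on the vertical axis for the 10 UBE2 genes called lower in at least 1 comparison, in 1 panel per gene, with 1 point per library and the mean and SD of the 3 libraries beside each shRNA group. In every panel the AE points lie below all control points and all LYL1 points.

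A further 9 members had every AE library below every control without being called by edgeR, among them UBE2V2, UBE2M, UBE2F, UBE2H, UBE2E2, UBE2J1, UBE2D3 and UBE2N. DESeq2 called UBE2V2, UBE2M, UBE2F and UBE2J1 of these. In all, 16 of 33 members were separated downwards in this way and 1 upwards, where 22.2% and 23.1% of all genes tested were. The members nearest to the threshold were UBE2Q1 inside it (adjusted p = 0.0490) and UBE2V2 and UBE2M outside it (0.0502 and 0.0512). Under some other scalings or filters edgeR called UBE2V2 and UBE2M too, and under some it did not call UBE2Q1.

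Of the 6 enzymes of DNA damage tolerance and repair, edgeR called none with AE knockdown (1 with an unadjusted p below 0.05), while DESeq2 called UBE2V2 lower (adjusted p = 0.0116). Their median log2 fold change was -0.15. UBE2N builds chains only together with UBE2V1 or UBE2V2, which lack the catalytic cysteine. UBE2V2 stood at 113, 126 and 129 CPM in the control libraries and at 97.5, 96.3 and 89.9 CPM with AE knockdown, a log2 fold change of -0.37 (SE 0.12). UBE2N was at 188 to 193 CPM in the control libraries and 147 to 183 CPM with AE knockdown. UBE2A and UBE2B, the partners of RAD18 on PCNA and of RNF20 on histones, overlapped the controls in the AE libraries and had log2 fold changes of -0.07 and 0.12.

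UBE2T, the E2 of the Fanconi anaemia pathway, varied more among the AE libraries than between the groups. It stood at 49.0, 46.1 and 48.0 CPM in the control libraries and at 40.6, 57.8 and 23.3 CPM with AE knockdown. AE library 2 was above all controls and library 3 at 48.9% of their mean. The S phase list, of which 4 of 18 genes fell and none rose, was at 75.8%, 92.2% and 50.8% of the control mean in the same libraries. None of 10 genes for PCNA and Fanconi ligases was called by edgeR, DESeq2 or limma-voom, and 0 had an unadjusted p below 0.05.

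The UBE2D and UBE2E enzymes, which serve many different ligases, had no call among 7 by edgeR, DESeq2 or limma-voom, and 2 had an unadjusted p below 0.05. UBE2D3 was at 439, 432 and 419 CPM in the control libraries and at 347, 390 and 284 CPM with AE knockdown, without overlap (log2 fold change -0.34, SE 0.14, adjusted p = 0.113 with edgeR). UBE2E2 was at 82.9 to 87.7 CPM in the control libraries and at 31.3, 74.5 and 60.6 CPM with AE knockdown. Its log2 fold change of -0.63 was the same to 2 decimals as that of UBE2K, but with a wider SE of 0.25 and an adjusted p of 0.0918. Without AE library 2 it was -0.91 (adjusted p = 0.0206). UBE2D1, UBE2D2, UBE2D4, UBE2E1 and UBE2E3 overlapped the controls, with log2 fold changes of -0.08 to 0.27. The sign for UBE2D4 and UBE2E3 changed with the scaling.

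Of the 3 enzymes that serve degradation at the endoplasmic reticulum, UBE2J1 is anchored in its membrane. It was at 334, 354 and 375 CPM in the controls, 291, 261 and 276 CPM in the AE libraries and 375, 417 and 504 CPM in the LYL1 libraries. All AE libraries lay below and all LYL1 libraries above the controls, and edgeR called neither difference from control (log2 fold changes -0.36 and 0.29). DESeq2 called the lower level with AE knockdown (adjusted p = 0.0431). UBE2J2, the other membrane-anchored enzyme, was at 46.2 to 48.3 CPM in the control libraries and overlapped them in both knockdowns. UBE2G2, which marks misfolded proteins drawn out of the reticulum, was at 143 to 156 CPM in the control libraries and at 127, 145 and 83.0 CPM with AE knockdown. None of 7 tested endoplasmic reticulum ligases was called by edgeR, DESeq2 or limma-voom, and in edgeR 1 had an unadjusted p below 0.05.

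None of the enzymes for ubiquitin-like modifiers was called by edgeR, though 3 had an unadjusted p below 0.05, and DESeq2 called UBE2M and UBE2F lower (adjusted p = 0.0242 and 0.0246). UBE2M and UBE2F load NEDD8 onto cullins. UBE2M was at 101, 106 and 102 CPM in the control libraries and at 78.7, 85.7 and 63.0 CPM with AE knockdown (log2 fold change -0.44, SE 0.15), and it passed the threshold without AE library 2 (adjusted p = 0.0247). UBE2F was at 5.12 to 6.55 CPM in the control libraries and 3.47 to 4.19 CPM with AE knockdown. UBE2L6, the interferon-induced E2 of ISG15, and UBE2Z, which works with the E1 enzyme UBA6, overlapped the controls in both knockdowns.

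UBE2W, which attaches ubiquitin to the first amino acid of a protein, was the only member whose AE libraries all lay above the controls. It stood at 28.0, 26.0 and 28.4 CPM in the controls, 46.2, 32.7 and 70.3 CPM in the AE libraries and 19.1, 35.7 and 49.8 CPM in the LYL1 libraries. The LYL1 libraries spread around the controls. The log2 fold change with AE knockdown was 0.85 (SE 0.33, adjusted p = 0.0900 with edgeR). Without AE library 2 it was 1.08 and passed the threshold (adjusted p = 0.0343).

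UBE2H, the E2 of the CTLH ligase of maturing red cells, was at 59.5 to 63.3 CPM in the control libraries and at 41.5, 42.2 and 47.0 CPM with AE knockdown. In the fit of all 9 libraries edgeR did not call it (log2 fold change -0.49, SE 0.19, adjusted p = 0.0807). It passed in edgeR without LYL1 library 538 or 542 (0.0333 at the lowest) and in the fit of the 6 control and AE libraries (0.0297). LYL1 shRNA libraries ran from 42.5 to 76.0 CPM. Of 11 CTLH genes 3 rose with AE knockdown (RMND5B, YPEL5 and WDR26) and 1 fell (RANBP9). UBE2Q2 overlapped the controls in both knockdowns.

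The remaining 3 members gave too few reads to test: UBE2U had none in any library, and the pseudogenes UBE2L2 and UBE2L4 had 1 and 6 reads over all libraries. UBE2L5 (0.378 to 0.767 CPM) and UBE2V1 (0.923 to 2.31 CPM) were tested at very low levels. The joined gene TMEM189-UBE2V1 shares exons with UBE2V1, and UBE2F-SCLY shares exons with UBE2F. They held 0 and 2 reads, and the counting of reads in shared exons is not given in the sources used here, so the values of UBE2V1 and UBE2F are uncertain. The pseudogene UBE2SP1, a copy of UBE2S, had 114, 86 and 74 counts in the controls. Its counts were 32, 86 and 42 in the AE libraries and 109, 98 and 115 in the LYL1 libraries.

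Across the family, 26 of 33 members had a negative log2 fold change with AE knockdown, against 46.7% of all genes tested. The median was -0.30 for the members and 0.05 for all genes. The share of all counts that fell on UBE2 genes was 0.378%, 0.386% and 0.373% in the control libraries and 0.304%, 0.346% and 0.260% in AE libraries 1, 2 and 3. In LYL1 libraries 538, 540 and 542 it was 0.391%, 0.397% and 0.415%. The AE shares lay below all controls and the LYL1 shares above them.

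**Figure D3:**
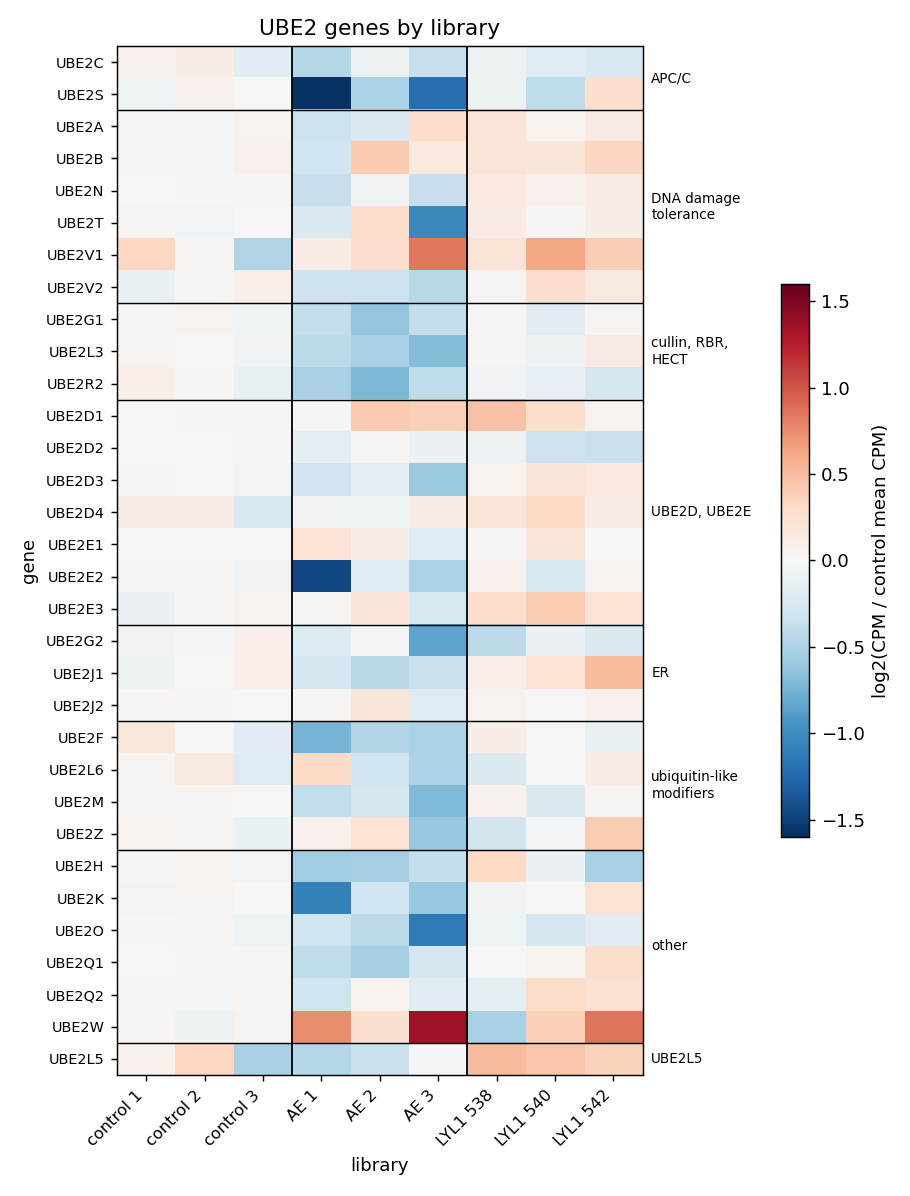
Log2 ratio of 32 of the 33 tested UBE2 genes to their control means in the 9 libraries, with 1 row per gene and 1 column per library and the colour giving the ratio. The AE shRNA columns hold most of the low values, with UBE2S in AE library 1 the darkest, and UBE2W in AE library 3 is the highest value.

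Which AE library was lowest differed from gene to gene. It was library 1 for 14 members, library 2 for 6 and library 3 for 13. Among all genes tested the same shares were 27.3%, 35.2% and 37.5%. For 30 members above 10 CPM the median coefficient of variation was 3.75% in the controls, 15.3% with AE knockdown and 8.15% with LYL1 knockdown, against 5.75%, 18.3% and 11.8% for all such genes. The controls were thus much more alike than the AE libraries.

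Granulocyte and monocyte markers moved with AE knockdown too: of 9 tested (14 listed), edgeR called 7 higher, DESeq2 6 and limma-voom 3. Their summed level was 91.1 to 99.7 CPM in the controls, 221, 306 and 1031 CPM in AE libraries 1, 2 and 3 and 98.3 to 168 CPM with LYL1 knockdown. No marker was at 0 in all libraries, although CD14 did not exceed 0.15 CPM in any and LTF was at 0 in 8. The part of this shift in the falls of the UBE2 genes was not tested. In a list of interferon genes, which did not hold UBE2L6, edgeR called 1 of 15 tested higher and 0 lower. DESeq2 and limma-voom each called 1 higher and 1 lower.

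No UBE2 gene passed the test with LYL1 knockdown. By edgeR 0 of 33 were called in either direction, 0 had an unadjusted p below 0.05, and neither DESeq2 nor limma-voom called any. The background was as low: 1 gene of all tested was called higher (0.00678%) and 1 lower (0.00678%). Member log2 fold changes ran from -0.25 (UBE2D2) to 0.43 (UBE2L5), with a median of 0.07 against 0.01 for all genes and a median standard error of 0.22 over all genes. All 3 LYL1 libraries lay above all controls for 10 members (UBE2A, UBE2B, UBE2D1, UBE2D3, UBE2D4, UBE2E1, UBE2E3, UBE2J1, UBE2L5 and UBE2N), which is 30.3% of those tested where 8.41% of all genes did so. They lay below all controls for 2 members, UBE2D2 and UBE2G2, where 8.17% of all genes did so. UBE2E3 was at 37.4, 40.8 and 41.7 CPM in the control libraries and at 48.5, 53.0 and 47.0 CPM with LYL1 knockdown, a log2 fold change of 0.31 (SE 0.14).

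**Figure D4:**
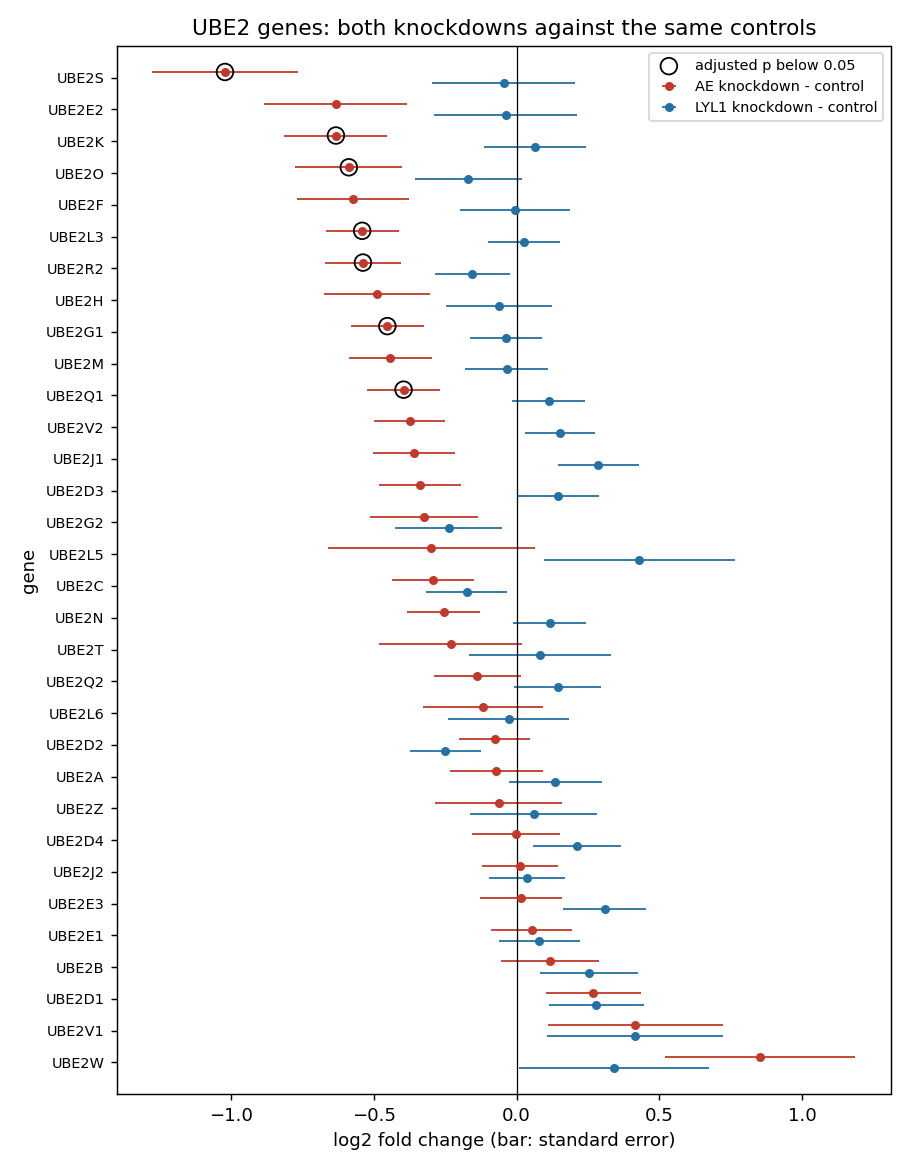
Log2 fold change of 32 of the 33 tested UBE2 genes with AE knockdown and with LYL1 knockdown, both against the same 3 controls, with the standard error as a bar and circles round values with an adjusted p below 0.05. The 7 circled values all belong to AE knockdown and lie between -1.02 and -0.40.

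Since both knockdowns share their control libraries, their difference was tested directly. UBE2J1, UBE2L3, UBE2V2, UBE2Q1, UBE2K, UBE2S, UBE2D3 and UBE2G1 were lower with AE than with LYL1 knockdown, 8 of 33 members (24.2%), and none was higher. Of all genes tested 9.7% were called lower in this comparison and 10.7% higher. For the 0 members called higher, none had an unadjusted p below 0.05, and neither DESeq2 nor limma-voom called any. The libraries of the knockdowns did not overlap, with AE the lower, for 17 members against 17.2% of all genes, and with AE the higher for 0 members against 18.2%. The median log2 difference was -0.36 for the members and 0.03 for all genes.

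UBE2J1, UBE2V2 and UBE2D3 were called here by edgeR and not against the controls, where DESeq2 called UBE2J1 and UBE2V2. UBE2J1 had log2 values of -0.36 with AE and 0.29 with LYL1 knockdown against control, and a difference of -0.64 (adjusted p = 0.0127 with edgeR). UBE2V2 was at 126, 148 and 135 CPM with LYL1 knockdown, and the difference was -0.53 (adjusted p = 0.0151 with edgeR). UBE2D3 was at 448, 497 and 480 CPM there, and the difference was -0.48 (adjusted p = 0.0374 with edgeR). UBE2J1, UBE2L3 and UBE2V2 kept the call when any one of the 9 libraries was left out. UBE2K and UBE2Q1 lost it only without LYL1 library 542 (0.0745 and 0.0659). UBE2S lost it without LYL1 libraries 538 or 542 or AE libraries 1 or 3 (0.0524 to 0.0839), UBE2D3 in all omissions but those of AE libraries 2 or 3 (up to 0.0970), and UBE2G1 in all but those of AE libraries 1 or 3 or LYL1 library 540 (up to 0.102).

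Genes of other steps of the cascade were called in both directions with AE knockdown, where 11.4% of all genes tested were called higher and 10.4% lower. Of 10 E1 genes, ATG7 rose, while UBA1, the main E1 of ubiquitin, and SAE1, a subunit of the SUMO E1, fell. UBA1 stood at 492, 480 and 393 CPM in the control libraries and at 364, 312 and 240 CPM with AE knockdown. Of 8 tested E2 or E2-like genes with other symbols, TSG101, an E2-like protein without catalytic activity that sorts cargo at endosomes, and UFC1, the E2 of the modifier UFM1, rose by log2 fold changes of 1.06 and 0.73, and none fell.

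Of 11 tested genes of the modifiers themselves, 4 were called higher and 1 lower. RPS27A, which encodes ubiquitin fused to a ribosomal protein and has many near-identical copies in the genome, rose by 1.15 on the log2 scale. NEDD8 rose by 0.78, while its E2 genes UBE2M and UBE2F had negative values that DESeq2 called and edgeR did not.

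In a list of 17 subunits and regulators of the APC/C, which UBE2C and UBE2S serve, 4 genes rose and 5 fell. Those that rose were ANAPC2, ANAPC11, ANAPC15 and ANAPC16. Those that fell were ANAPC1, ANAPC7, CDC26, CDC27 and FBXO5, the last an inhibitor of the complex and not a subunit. Of all genes tested 11.4% rose and 10.4% fell. ANAPC2 and ANAPC11 form the catalytic core that binds the E2. Of 14 SUMO and ISG15 ligases and proteases, RANBP2 and SENP2 fell and none rose. With LYL1 knockdown edgeR called none of the genes in the pathway lists, and DESeq2 called 1, GID8 of the CTLH complex, lower.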

How the data were processed

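RNA sequencing counts of 9 Kasumi-1 libraries were used. The deposited counts are whole reads per gene, with no normalization by the authors. The submitters' processing notes name the build hg19 and list DESeq2 1.26.0, fastp 0.20.1, featureCounts 2.0.1, SAMtools 1.7 and HISAT2 2.2.0, without roles. The annotation, strand setting and handling of reads with several matches are not given in the sources used here, so genes with near-identical copies or antisense partners are uncertain. In 6 files 5 gene names carried a decimal suffix, which was removed.

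Low genes were removed by filterByExpr with the groups given. Comparisons used edgeR 4.0.16 (quasi-likelihood F test, TMM scaling, robust dispersions, 1 group-means model of all 9 libraries, R 4.3.3), with Benjamini-Hochberg adjustment over the 14741 genes tested and a call at an adjusted p below 0.05. Each standard error is its log2 fold change divided by the square root of F. The difference between knockdowns is a contrast of that model. The steps were run on simulated data with planted changes, and the share of those recovered is not given here. Some genes, 1 member among them, are not reported here by name, and counts over the family include that member. Members called, near the threshold or without overlap were given by library, and other genes of the pathway were named only where called. The members and lists were chosen with earlier results of these data known. Alternatives were 3 other scalings, 2 other filters, DESeq2 1.42.0, limma-voom (limma 3.58.1), fits of 6 libraries, other thresholds, omission of each library in turn and a block for the replicate number. Libraries of a group differed by more than sampling noise. Promoters were RefSeq sequences of GRCh38.p14, and their coordinates are of that build.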

Additional observations from a re-analysis of the deposited data

Results flagged for a closer look

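The difference between the AE and LYL1 knockdowns, tested as a contrast in edgeR, passed the adjusted threshold of 0.05 for 8 UBE2 genes. All 8 were lower with AE knockdown, and of all genes tested 9.7% were called lower in this comparison. In each case every AE library lay below every LYL1 library, as was so for 17.2% of all genes tested. The 8 were picked by a test on these same libraries, so this separation is no further support. The log2 difference was -0.64 for UBE2J1, the E2 anchored in the endoplasmic reticulum, -0.57 for UBE2L3, the partner of RBR and HECT ligases, and -0.53 for UBE2V2, the inactive partner of UBE2N. It was -0.51 for UBE2Q1, -0.70 for UBE2K and -0.98 for UBE2S, the chain-extending E2 of the APC/C. It was -0.48 for UBE2D3 and -0.42 for UBE2G1. For UBE2J1, UBE2V2 and UBE2D3, neither knockdown alone differed from control past the threshold in edgeR, while DESeq2 called UBE2J1 and UBE2V2 lower with AE knockdown (adjusted p = 0.0431 and 0.0116).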

How the results depend on the processing

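No result on a member that was called changed direction under any alternative. With AE knockdown 7 members were called lower in the edgeR fit of all 9 libraries, and 11 with DESeq2 (with UBE2F, UBE2J1, UBE2M and UBE2V2 added). It was 1 (UBE2S) with a fold of at least 2 and 0 at an adjusted p below 0.01. Median-of-ratios scaling and a stricter low-count filter each gave 9 (UBE2M and UBE2V2 added). Upper-quartile scaling gave 5 (UBE2O and UBE2Q1 lost) and library totals only gave 6 (UBE2O lost). No low-count filter gave 5 (UBE2G1 and UBE2Q1 lost). The fit of the 6 libraries compared gave 5 (UBE2H added, UBE2K, UBE2O and UBE2Q1 lost). Leaving out 1 library gave 0 to 10 called lower, with 0 without control 1 or 2 and 1 (UBE2R2) without control 3, and 0 to 1 called higher (UBE2W, without AE library 2 or LYL1 library 538). All genes called fell too when a control was left out, from 1684 higher and 1530 lower in the fit of all 9 libraries. They were 494 and 602 without control 1, 423 and 531 without control 2 and 445 and 605 without control 3. Without AE library 2, which gave the 10 members, they rose to 2336 and 1932. With DESeq2 they were 1949 and 1978. With the other scalings, the other filters or 6 libraries they were 1289 to 1953 and 1267 to 1611. At an adjusted p below 0.01 they were 375 and 438, and with a fold of at least 2 they were 828 and 612. For AE against LYL1 knockdown, 8 members called lower became 13 with DESeq2, 0 with only the 6 libraries compared, 0 at an adjusted p below 0.01, 0 with a fold of at least 2 and 4 to 11 leaving out 1 library. All genes were 1573 higher and 1430 lower, 1838 and 1910 with DESeq2, and 470 and 471 with 6 libraries. They were 371 and 413 at an adjusted p below 0.01 and 754 and 601 with a fold of at least 2. Leaving out 1 library gave 658 to 2151 higher and 802 to 1856 lower. With LYL1 knockdown 0 members were called in all settings, while all genes called went from 1 and 1 to 25 and 9 with DESeq2 and 11 and 4 with 6 libraries. The cause of these changes was not tested. Whether the replicate numbers pair control and AE libraries is not stated. Same-numbered deviations from the group means correlated at 0.10, -0.04 and 0.03, and those of unlike numbers at -0.11 to 0.06. With 3 libraries a group these values cannot exclude a shared batch. The fit with the replicate number as a block called 1 member lower (UBE2S) and 0 higher, with 744 genes higher and 885 lower in all. The median of all genes moved by less than 0.1 (log2) under other scalings, and the member median with AE knockdown stayed between -0.35 and -0.24 leaving out 1 library. With 3 libraries a group and a median standard error of 0.22, an uncalled member is not shown to be unaltered.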

Other observations

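The pseudogene UBE2V1P2, which is no member by its symbol, had 593, 632 and 536 counts in controls 1 to 3 and 472, 490 and 382 in AE shRNA libraries 1 to 3. In LYL1 shRNA libraries 538, 540 and 542 it had 852, 40 and 408 counts, and the low value of library 540 was not shared by UBE2V1, at 1.97 CPM there. This gene was chosen after its values were seen.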
